A study of Mus musculus with 9 samples.

Results

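The antioxidant, thioredoxin and glutathione genes are 38 genes, chosen by name with earlier results of these data known. They encode enzymes removing superoxide and peroxides, the thioredoxin and glutathione systems that keep these enzymes reduced, and their main regulators. All 38 were found among the 52459 gene symbols of the table. They were followed in RNA sequencing counts of islets of Langerhans, the hormone-secreting cell clusters of the pancreas, from mice 12 weeks old. The groups, with 3 libraries each, were db/db (-/-), in which both copies of Lepr, the leptin receptor gene, carry the db mutation, Heterozygous (+/-), here db/+, with 1 mutant copy, and Wild type (+/+), here WT. All 9 libraries carry the same strain label, and the labels do not give the sex or any pooling of the mice. The db allele is carried in every tissue, and db/db mice are known to become obese and diabetic. Nothing states that the libraries of a group came from separate mice, so the p values measure the spread between these libraries only, which may be technical.

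Superoxide dismutases turn superoxide into hydrogen peroxide, which catalase, glutathione peroxidases and peroxiredoxins then remove. The last of these draw their reducing power from thioredoxin and glutathione, which are recycled with NADPH from the pentose phosphate pathway. The transcription factor NRF2, held back by KEAP1, raises many of these genes through antioxidant response elements in their promoters. Rodent beta cells are known for low catalase and glutathione peroxidase levels, and TXNIP, which binds thioredoxin, is a glucose-induced gene in them.

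Each level is a CPM value, counts scaled to 1000000 TMM-normalised counts a library, with libraries 1, 2 and 3 of a group in that order. Each change is a log2 fold change ± SE. The edgeR quasi-likelihood test was run over 16826 genes, its p values were adjusted by the Benjamini-Hochberg method over all of them, and a gene was called at an adjusted p under 0.05. Total counts were 8860024 to 11734886 per library, and 3 counts, the limit that a count of 0 allows, were 0.238 to 0.412 CPM, which covers counting error only. Lepr stood at 9.47, 2.60 and 2.05 CPM in db/db islets, 4.37, 1.52 and 1.63 CPM in db/+ islets, and 3.17, 1.72 and 1.93 CPM in WT islets, but the db mutation alters splicing, so a count over the gene does not check the labels. Markers of beta cells were abundant in every library (summed CPM 91969 to 125208 in db/db, 104206 to 116249 in db/+ and 83874 to 121523 in WT), and 7 of 10 fell and 1 rose in db/db against WT. Alpha cell markers, 5 of 7 lower and 2 higher against each group, summed to 9766 to 11192 CPM in db/db, 16390.4 to 19812 CPM in db/+ and 10173 to 18543 CPM in WT, and the part of these shifts in the results was not tested. In bulk islets, fewer cells of a type and less RNA per cell cannot be told apart. Library db/db 1 stood apart in acinar, duct and fibroblast markers (values below), and counts of Xist, a female marker, and of 4 Y-linked genes differed between groups. Xist stood at 308, 948 and 858 CPM in db/db, at most 0.506 CPM in db/+ islets, and 565, 0.722 and 596 CPM in WT. Y-linked genes summed to 176, 1.11 and 0.108 CPM in db/db, 417, 373 and 407 CPM in db/+ islets, and 219, 343 and 235 CPM in WT. Both were therefore present in db/db 1, WT 1 and WT 3, and between db/db and db/+ sex and genotype cannot be told apart. Gm42418 and Lars2, which overlap ribosomal RNA sequence, took 17.9%, 13.3% and 0.0558% of the db/db counts and at most 2.58% elsewhere.

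Promoter sequences are shown for 4 genes that were higher in db/db than in both other groups and that hold a known stress or nutrient element close to their start. Each is the 250 bases before the start site, from RefSeq on GRCm38.p6, the assembly of mm10, written 5′ to 3′ along the gene's strand with the element in capitals. The elements were searched on both strands after the results were known. The Txnip promoter shows a carbohydrate response element, searched as a pair of CACGNG E boxes 5 bases apart, a site bound by glucose-sensing factors.
Txnip, chr3:96557707-96557956, plus strand: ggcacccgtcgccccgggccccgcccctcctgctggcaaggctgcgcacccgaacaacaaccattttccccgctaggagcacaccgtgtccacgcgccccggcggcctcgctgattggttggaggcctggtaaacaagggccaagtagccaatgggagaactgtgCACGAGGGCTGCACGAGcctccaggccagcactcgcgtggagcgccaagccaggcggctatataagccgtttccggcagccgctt
In the Slc7a11 promoter the capitals mark a pair of TGATGNAA sites in opposite directions, the core of the C/EBP-ATF response element bound by ATF4.
Slc7a11, chr3:50443614-50443863, minus strand: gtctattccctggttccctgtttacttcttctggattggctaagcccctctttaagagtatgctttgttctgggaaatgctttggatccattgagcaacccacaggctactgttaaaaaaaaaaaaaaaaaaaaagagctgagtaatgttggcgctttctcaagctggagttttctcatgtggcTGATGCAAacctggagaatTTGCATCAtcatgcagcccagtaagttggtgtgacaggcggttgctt
Those of Prdx1 and Sod1 mark the antioxidant response element core TGACNNNGC, which lies on the opposite strand in both and is therefore seen here as its reverse complement.
Prdx1, chr4:116685349-116685598, plus strand: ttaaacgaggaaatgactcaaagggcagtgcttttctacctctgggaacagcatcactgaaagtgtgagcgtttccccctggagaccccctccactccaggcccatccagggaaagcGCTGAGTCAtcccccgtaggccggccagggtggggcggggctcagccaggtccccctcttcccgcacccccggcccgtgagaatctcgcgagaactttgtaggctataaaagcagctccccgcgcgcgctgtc
Sod1, chr16:90220512-90220761, plus strand: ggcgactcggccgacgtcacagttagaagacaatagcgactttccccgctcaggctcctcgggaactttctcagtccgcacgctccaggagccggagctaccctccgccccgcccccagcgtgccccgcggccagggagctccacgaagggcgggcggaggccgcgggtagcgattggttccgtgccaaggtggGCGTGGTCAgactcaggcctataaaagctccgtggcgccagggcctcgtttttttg
The start used for Slc7a11 lies inside its annotated gene span and not at the span's end. The same holds for the starts used for Txnrd1 and Gclm, named below. A promoter window of 300 bases, reaching 50 bases past the start, was at hand for 32 of the 38 genes. The carbohydrate response element was in 1 of the 32 (Txnip, bases -85 to -69 from the start site) and in 0.0487% of all 32851 windows. The TGATGNAA core was in 1 gene (Slc7a11, at -66 to -59 and -47 to -40) and in 3.97% of windows. The antioxidant core was in 7 genes, Sod1 (-56 to -48), Prdx1 (-133 to -125), Srxn1, Txnrd1, Gclm, Nfe2l2 and G6pdx, and in 12.4% of windows. No site of one element overlapped a site of another in these genes. A match describes letters in this window and is not evidence of binding.

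Of the 38 genes, 14 rose and 2 fell in db/db against WT, and 13 rose and 3 fell in db/db against db/+. Over all tested genes 21.8% rose and 19.9% fell against WT, and 20.6% rose and 19.7% fell against db/+, beside 36.8% and 5.26%, and 34.2% and 7.89%, of the 38. Both comparisons use the same db/db libraries, so they are not independent. The 38 genes were chosen with earlier results of these data known, so their shares and medians are descriptions and no test of the set. Against both groups, 12 genes rose (Sod1, Sod3, Gpx8, Prdx1, Prdx4, Prdx5, Txn1, Txnip, Gclc, Slc7a11, Gstp1 and Keap1) and 2 fell (Nqo1 and Glrx). The Keap1 call against WT was the least stable of these, held in 6 of 23 alternatives. The remaining calls were Prdx2 and Txnrd1, higher against WT, and Srxn1, higher, and Sod2, lower, against db/+. The median log2 fold change of the 38 was 0.26 against WT and 0.16 against db/+, beside 0.01 in both for all tested genes. Groups did not overlap for 15 genes above and 3 below WT (26.2% and 25.3% of all tested genes), and for 16 above and 5 below db/+ (26.2% and 26% of all tested genes). All 38 passed the filter on low counts. Sod3 reached its level of 0.925 CPM in 3 db/db libraries, 1 db/+ library and 1 WT library, and Gsta4 in 2, 1 and 1. Both passed only through db/db, so the Sod3 calls counted above are not free of the filter. Scaled to library totals alone, which shifted all genes by a median of -0.22, 9 rose and 6 fell against WT, and 9 rose and 8 fell against db/+, with Gclc, Prdx5 and Keap1 lost in both. The first letter of the sample titles, whose meaning is not given, is H in all db/db, G in all db/+ and both in WT. With that letter as a covariate 8 rose and 2 fell against WT. Against db/+ Prdx1, Prdx4, Txn1, Txnip and Gclc then rose and Nqo1 fell. With Y-linked counts as a covariate 13 rose and 2 fell against WT, and 11 rose and 2 fell against db/+. The calls of Sod1 and Keap1 ended in both comparisons. Those of Prdx2 and Txnrd1 ended against WT, and those of Prdx5, Srxn1 and Sod2 against db/+. Cat and Gsta4 passed in both under this covariate, and Gpx3 passed against WT. Without the 3 libraries holding both Xist and Y-linked counts, 1 WT library was left, so only effect sizes are given here. The median log2 fold change of the 38 was then 0.19 against WT and 0.20 against db/+. Against WT, Sod3 gave 0.74, Gpx8 0.96 and Keap1 0.20, lower than with all libraries. Prdx2 gave 0.30 and Txnrd1 0.22 against WT, higher than with all libraries. The db/db libraries left there had at most 1.11 CPM of Y-linked genes, and the WT and db/+ ones at most 0.722 CPM of Xist. Sex and genotype therefore cannot be told apart in either comparison with those libraries left out.

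**Figure D1:**
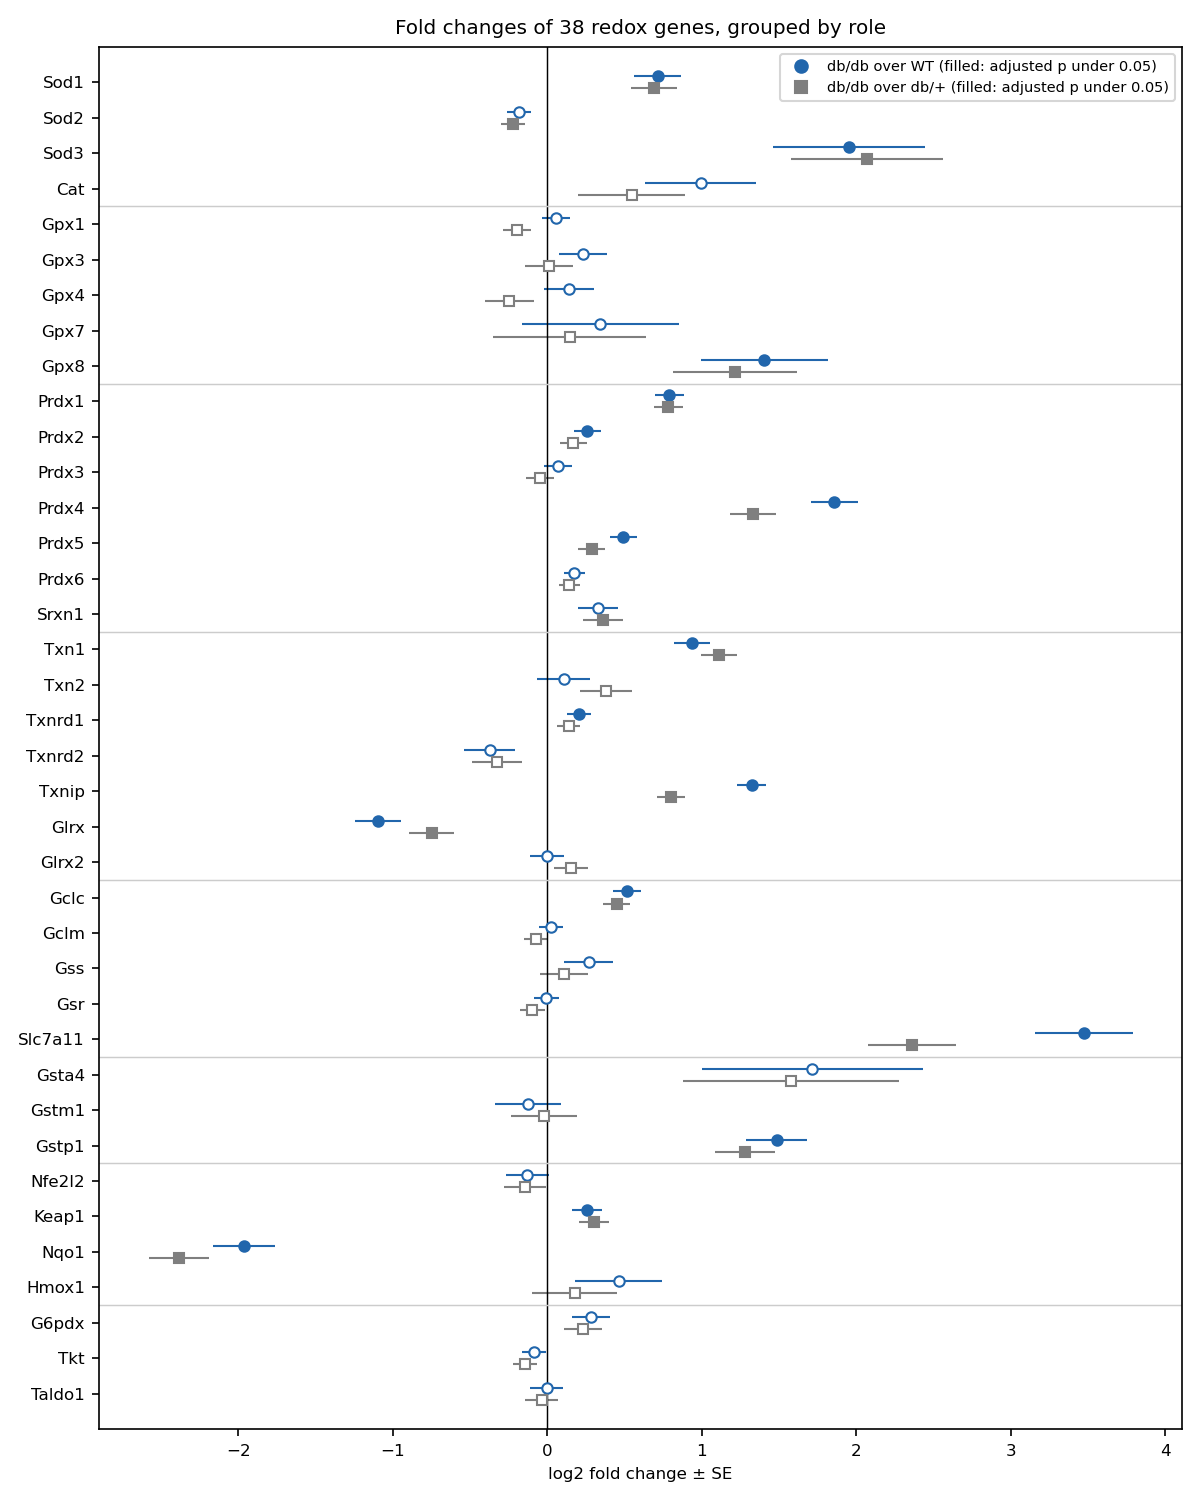
Log2 fold changes ± SE of the 38 genes (rows, grouped by role) in db/db over WT (circles) and db/db over db/+ (squares), filled where the adjusted p is under 0.05. Slc7a11 lies farthest right, at 3.47 and 2.36, and Nqo1 farthest left, at -1.96 and -2.38.

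The largest change was that of Slc7a11 (chromosome 3, 50364936 to 50499087, GRCm38), the cystine importer that supplies cysteine for glutathione. It stood at 30.7, 42.7 and 27.3 CPM in db/db islets, 4.04, 5.65 and 9.87 CPM in db/+ islets, and 3.33, 2.62 and 3.05 CPM in WT islets. All db/db libraries lay above all others, and the db/+ libraries lay above the WT ones. Slc7a11 rose in db/db by 3.47 ± 0.32 (adjusted p = 1.58e-05) against WT and by 2.36 ± 0.28 (adjusted p = 1.17e-04) against db/+, while db/+ over WT gave 1.11 ± 0.34 (adjusted p = 0.156). Gclc, the catalytic subunit of glutamate-cysteine ligase, the first step of glutathione synthesis, was at 48.6, 49.7 and 46.8 CPM in db/db islets, 34.6, 37.5 and 34.2 CPM in db/+ islets, and 35.5, 35.8 and 30.1 CPM in WT islets. It rose by 0.51 ± 0.09 (adjusted p = 5.16e-04) against WT and 0.45 ± 0.09 (adjusted p = 0.00142) against db/+, without overlap in either. Its modifier subunit gene Gclm did not pass (0.03 ± 0.08, adjusted p = 0.823, and -0.07 ± 0.08, adjusted p = 0.505), with all libraries between 49.8 and 57.6 CPM. The ratio of Gclc to Gclm counts, which no library scaling can move and which was chosen after the values were seen, was 0.975, 0.916 and 0.830 in db/db, 0.629, 0.668 and 0.593 in db/+, and 0.638, 0.701 and 0.590 in WT. All 3 db/db ratios lay above the other 6. Neither Gss, glutathione synthetase, nor Gsr, which reduces oxidised glutathione, passed the test in any comparison. Gsr kept between 54.1 and 64 CPM in the 9 libraries, and Gss between 12.1 and 18.8 CPM.

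Txnip (chromosome 3, 96557957 to 96561857, GRCm38), whose product binds and blocks thioredoxin, was the most abundant of the 38 genes and stepped up over the genotypes. It stood at 1394, 1458 and 1382 CPM in db/db islets, 884, 829 and 718 CPM in db/+ islets, and 533, 573 and 585 CPM in WT islets. No library of one group overlapped another group, with db/db highest and WT lowest. The rise was 1.32 ± 0.09 (adjusted p = 1.68e-07) in db/db against WT and 0.80 ± 0.09 (adjusted p = 1.45e-05) against db/+, and 0.52 ± 0.09 (adjusted p = 0.0251) in db/+ against WT. The call in db/+ ended without db/+ 1, db/+ 2 or WT 3 (adjusted p 0.00968 to 0.146 over single libraries left out). Txnip made up 45.5% to 47.7% of the summed CPM of the 38 genes in db/db, 33.7% to 37.8% in db/+ and 28.7% to 30.3% in WT. In mouse annotation 20% of its exon length is shared with the antisense gene Gm15441, and without stated strand such reads cannot be told apart. Gm15441 had at most 2.97 CPM in any library, a count that cannot limit the reads in the shared part. That gene also rose in db/db, by 1.39 ± 0.37 (adjusted p = 0.00815) against WT and 2.06 ± 0.39 (adjusted p = 9.07e-04) against db/+.

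Thioredoxin itself rose as well. Txn1, the cytosolic thioredoxin, was at 46.4, 43.4 and 45.5 CPM in db/db islets, 22.1, 19.7 and 20.7 CPM in db/+ islets, and 19, 25 and 26.9 CPM in WT islets, with every db/db library above every other one. The rise was 0.94 ± 0.12 (adjusted p = 3.33e-05) against WT and 1.11 ± 0.12 (adjusted p = 7.72e-06) against db/+. Its pseudogene Txn-ps1, which may share reads, was higher in db/db too, by 0.90 against WT (adjusted p = 0.00164), so Txn1 counts carry that uncertainty. The mitochondrial thioredoxin gene Txn2 had 24.7 to 45.1 CPM in the 9 libraries and gave 0.11 ± 0.17 (adjusted p = 0.646) against WT and 0.38 ± 0.17 (adjusted p = 0.0964) against db/+, passing there without WT 2. Txnrd1, the cytosolic thioredoxin reductase, was at 119.7, 127 and 139.7 CPM in db/db islets, 124, 117 and 111 CPM in db/+ islets, and 108, 114 and 113 CPM in WT islets with db/db above WT but overlapping db/+. It rose against WT by 0.21 ± 0.08 (adjusted p = 0.0456), a call that ended without db/db 2, db/db 3, db/+ 2, db/+ 3 or any single WT library (adjusted p 0.0188 to 0.209) and that held in 8 of 23 alternatives. With library totals as the scale its fold change was -0.0093 (adjusted p = 0.96). Txnrd2, its mitochondrial counterpart, gave -0.37 ± 0.16 (adjusted p = 0.0794) and -0.32 ± 0.16 (adjusted p = 0.125) and did not pass.

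Glutaredoxin went the other way. Glrx, the cytosolic glutaredoxin, which frees proteins from bound glutathione, was at 11.3, 13 and 11.1 CPM in db/db islets, 18.2, 17.5 and 23.7 CPM in db/+ islets, and 21.8, 27.7 and 26.2 CPM in WT islets. All 3 db/db libraries lay below the lowest of the other 6. The fall was 1.10 ± 0.15 (adjusted p = 5.60e-05) against WT and 0.75 ± 0.15 (adjusted p = 0.00132) against db/+. The mitochondrial Glrx2 kept between 18.8 and 24.3 CPM and passed no test.

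**Figure D2:**
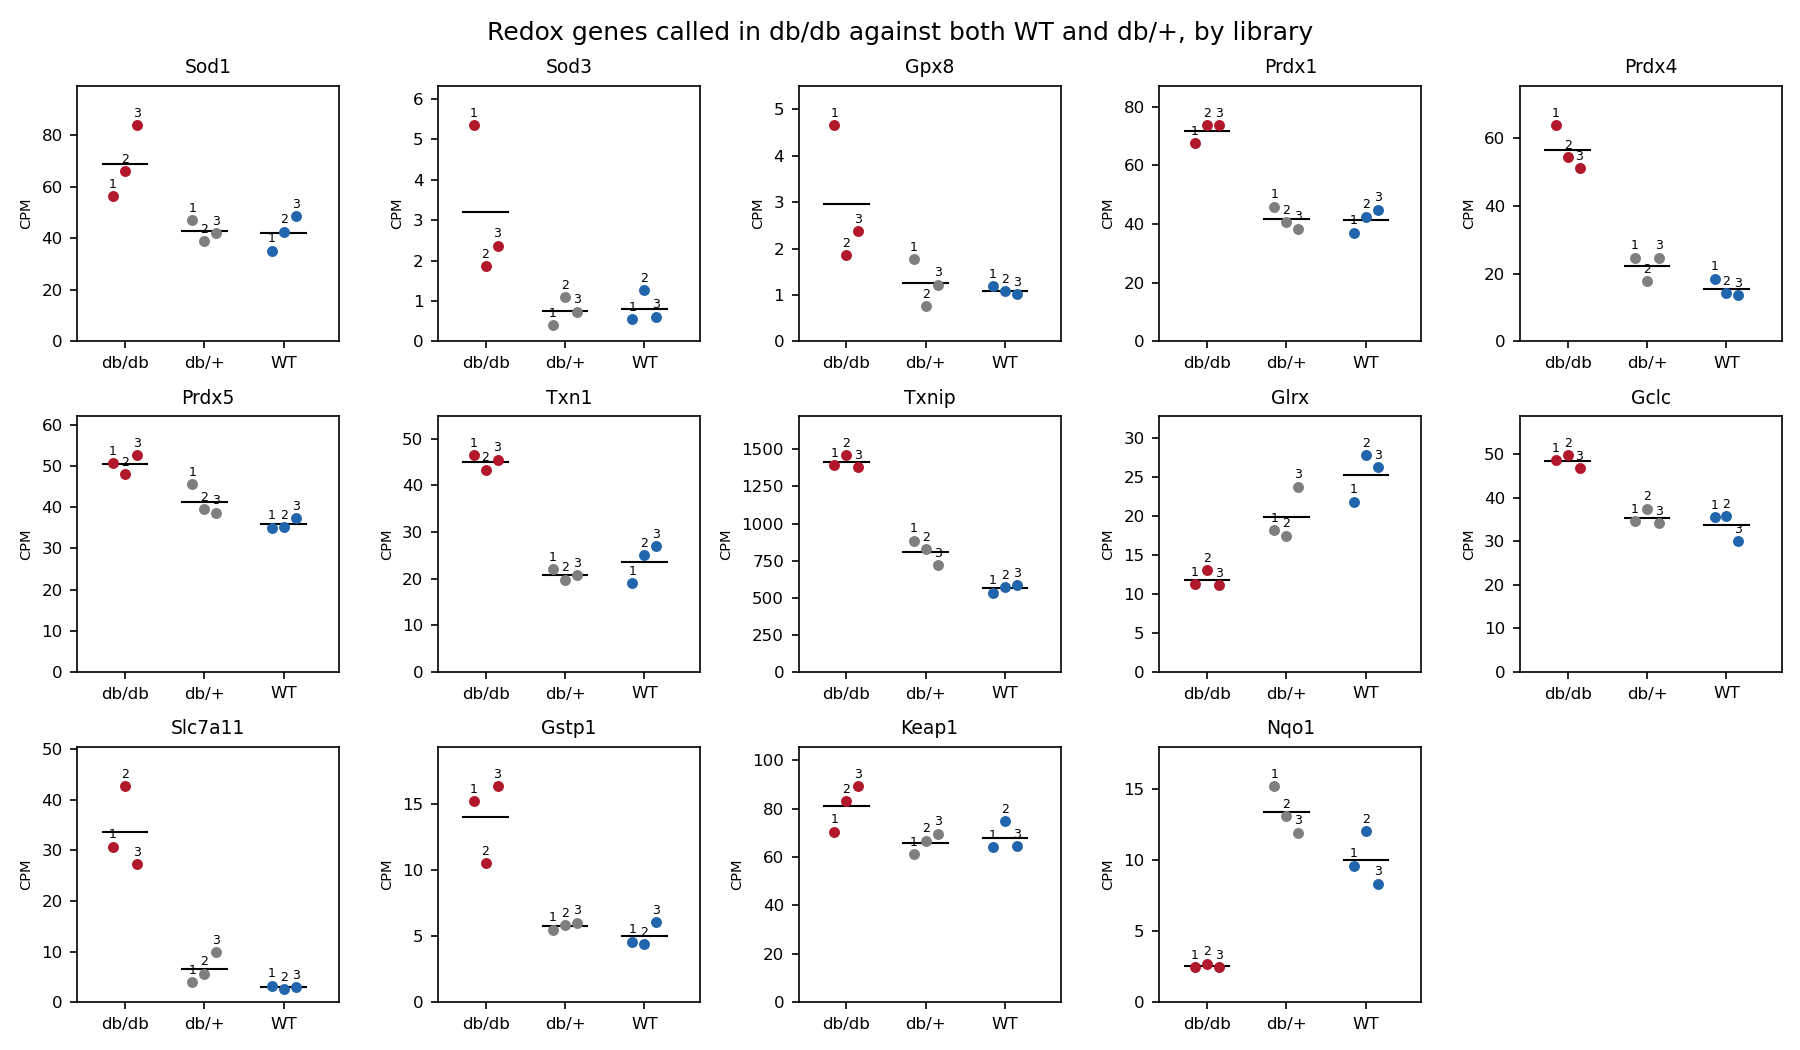
CPM in each library (points, numbered by library) and group mean (line) of the 14 genes that passed the test in the same direction in db/db against WT and against db/+, one panel a gene with its own axis from 0. Slc7a11 reached 42.7 CPM in db/db 2 against at most 9.87 CPM outside db/db, and Nqo1 was at most 2.73 CPM in db/db against at least 8.33 CPM outside it.

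Among the peroxiredoxins, thiol peroxidases found in different compartments, the member of the endoplasmic reticulum moved most. Prdx4 (chromosome X, 155323918 to 155342272, GRCm38), which passes oxidising equivalents to the protein-folding machinery of that compartment, was at 63.8, 54.4 and 51.1 CPM in db/db islets, 24.7, 17.7 and 24.7 CPM in db/+ islets, and 18.5, 14.2 and 13.7 CPM in WT islets. The db/db libraries stood clear of all others, and db/+ overlapped WT. Prdx4 rose by 1.86 ± 0.15 (adjusted p = 1.21e-06) against WT and 1.33 ± 0.15 (adjusted p = 1.47e-05) against db/+, and db/+ over WT gave 0.53 ± 0.16 (adjusted p = 0.12). Prdx1, a cytosolic peroxiredoxin, was at 67.5, 73.7 and 73.8 CPM in db/db islets, 45.9, 40.6 and 38.4 CPM in db/+ islets, and 37.1, 42.5 and 44.9 CPM in WT islets. The db/db libraries lay above the other 6, which overlapped. Prdx1 rose by 0.79 ± 0.09 (adjusted p = 2.02e-05) against WT and 0.78 ± 0.09 (adjusted p = 2.17e-05) against db/+. Prdx5, found in mitochondria, peroxisomes and cytosol, was at 50.6, 48.1 and 52.6 CPM in db/db islets, 45.7, 39.6 and 38.7 CPM in db/+ islets, and 35.1, 35.2 and 37.3 CPM in WT islets. The 3 groups did not overlap, with WT lowest. Prdx5 rose by 0.49 ± 0.09 (adjusted p = 5.81e-04) against WT and 0.29 ± 0.09 (adjusted p = 0.0175) against db/+, the second call ending without db/db 3, db/+ 2 or db/+ 3 (adjusted p 0.00762 to 0.0808). Antisense Trmt112 shares 19.1% of the Prdx5 exon length and had at most 6.71 CPM in any library, a count that cannot limit the shared reads.

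The other peroxiredoxins moved little. Prdx2, also cytosolic and abundant in red blood cells, was at 66.3, 69.5 and 73.1 CPM in db/db islets, 68.7, 55.9 and 61.3 CPM in db/+ islets, and 55.1, 57.8 and 61.8 CPM in WT islets, with db/db above WT and overlapping db/+. It rose against WT by 0.26 ± 0.09 (adjusted p = 0.0298), and that call ended without db/db 2, db/db 3, WT 1 or WT 2 (adjusted p 0.0223 to 0.111), while against db/+ it gave 0.17 ± 0.09 (adjusted p = 0.144). Erythrocyte markers summed to 68.5 to 163 CPM in db/db, 22.7 to 36.3 CPM in db/+ and 17.9 to 122 CPM in WT, and their part in the Prdx2 value was not tested. Mitochondrial Prdx3 stayed within 33.6 and 41.1 CPM. The Prdx4 to Prdx3 count ratio, also chosen after the values were seen, was 1.67, 1.49 and 1.36 in db/db, 0.635, 0.494 and 0.601 in db/+, and 0.532, 0.368 and 0.408 in WT. Prdx6, which also acts on oxidised phospholipids, gave 0.18 ± 0.07 (adjusted p = 0.0528) and 0.14 ± 0.07 (adjusted p = 0.111) with every db/db library above the other 6, and did not pass. Srxn1, sulfiredoxin, which repairs over-oxidised peroxiredoxins, was at 68.6, 74.2 and 95.2 CPM in db/db islets, 57.2, 65 and 63.6 CPM in db/+ islets, and 53.7, 71.3 and 64.7 CPM in WT islets. The db/db libraries lay above db/+ and overlapped WT. Srxn1 passed against db/+ (0.36 ± 0.13, adjusted p = 0.0416) and not against WT (0.33 ± 0.13, adjusted p = 0.0568). The first call ended without db/db 2, db/db 3, WT 3 or any single db/+ library, with adjusted p 0.0132 to 0.19, and its fold change was 0.21 without db/db 3. Against WT it passed without db/db 1 or WT 2.

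Of the superoxide dismutases, Sod1 rose against both groups and Sod2 did not. Sod1, the cytosolic copper-zinc enzyme, was at 56.4, 65.9 and 83.9 CPM in db/db islets, 47.1, 39 and 41.9 CPM in db/+ islets, and 35.2, 42.5 and 48.6 CPM in WT islets, lowest in db/db 1 within its group but without overlap between db/db and the others. It rose by 0.72 ± 0.15 (adjusted p = 0.00324) against WT and 0.69 ± 0.15 (adjusted p = 0.00401) against db/+, and both calls ended with Y-linked counts as a covariate (adjusted p = 0.154 and 0.271). Sod2, the mitochondrial manganese enzyme, was at 64.5, 71.7 and 66.9 CPM in db/db islets, 76, 81.5 and 79.8 CPM in db/+ islets, and 71.2, 78.7 and 80.8 CPM in WT islets. The db/db libraries lay below db/+ and overlapped WT. Sod2 fell by 0.22 ± 0.08 (adjusted p = 0.0324) against db/+, a call lost without db/db 1, db/db 3, db/+ 2 or db/+ 3 (adjusted p 0.0234 to 0.114), and gave -0.18 ± 0.08 (adjusted p = 0.0738) against WT, where it passed without WT 1. The Sod1 to Sod2 count ratio was 0.874, 0.919 and 1.25 in db/db, 0.620, 0.478 and 0.526 in db/+, and 0.495, 0.541 and 0.601 in WT.

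Sod3, Gpx8, Cat and Gsta4 had their highest value in db/db 1, as did Gpx3, Prdx4, Txn1, Glrx2 and Gstm1. Sod3, the secreted superoxide dismutase of the extracellular matrix, was at 5.35, 1.86 and 2.37 CPM in db/db islets, 0.404, 1.10 and 0.734 CPM in db/+ islets, and 0.555, 1.26 and 0.610 CPM in WT islets. All db/db libraries lay above the other 6. Sod3 rose by 1.95 ± 0.49 (adjusted p = 0.00617) against WT and 2.07 ± 0.49 (adjusted p = 0.0044) against db/+. It passed the filter on low counts only through db/db, so these calls and the lack of overlap are descriptions only. Without db/db 1 the Sod3 rises were 1.38 (adjusted p = 0.0322) and 1.51 (adjusted p = 0.0219). With the title letter as a covariate both Sod3 calls ended (2.35, adjusted p = 0.0519, and 2.62, adjusted p = 0.122). Without the 3 libraries holding both Xist and Y-linked counts, Sod3 gave 0.74 against WT. Gpx8, a peroxidase of the endoplasmic reticulum, was at 4.67, 1.86 and 2.37 CPM in db/db islets, 1.78, 0.759 and 1.22 CPM in db/+ islets, and 1.19, 1.08 and 1.02 CPM in WT islets, and the lowest db/db value lay just above the highest db/+ one. Its rise was 1.41 ± 0.41 (adjusted p = 0.014) against WT and 1.21 ± 0.40 (adjusted p = 0.026) against db/+, and without db/db 1 it was 0.94 (adjusted p = 0.0782) and 0.76 (adjusted p = 0.147), so that both calls ended. The second also ended without db/+ 2 or db/+ 3 (adjusted p 0.0146 to 0.147). Catalase, the peroxisomal enzyme encoded by Cat, was at 28, 11.8 and 11.5 CPM in db/db islets, 13.5, 10.3 and 10.9 CPM in db/+ islets, and 8.97, 10.2 and 6.20 CPM in WT islets, with db/db above WT and overlapping db/+. It gave 0.99 ± 0.36 (adjusted p = 0.0529) against WT and 0.55 ± 0.35 (adjusted p = 0.246) against db/+, neither past the threshold. Against WT it passed without db/db 2 or db/db 3 (adjusted p 0.0247 to 0.15 over single libraries left out). Gsta4, a glutathione transferase for lipid aldehydes, was at 5.49, 1.73 and 0.647 CPM in db/db islets, 1.37, 0.337 and 0.816 CPM in db/+ islets, and 0.952, 0.813 and 0.508 CPM in WT islets, with db/db overlapping both groups. It gave 1.72 ± 0.71 (adjusted p = 0.077) and 1.58 ± 0.70 (adjusted p = 0.0957), passing in both without db/db 3.

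Markers of acinar, duct, stellate, macrophage and endothelial cells were also highest in db/db 1. The 12 stellate cell, fibroblast and pericyte markers summed to 2048, 759 and 1292 CPM in db/db, 236 to 368 CPM in db/+ and 236 to 347 CPM in WT, with 7 of 12 higher against each group. The 24 acinar markers summed to 54105, 19438 and 20192 CPM in db/db, 16128 to 36826 CPM in db/+ and 6969 to 13168 CPM in WT. Of 23 tested acinar markers 15 were higher against WT and 1 against db/+. Duct markers (10 of 12 higher against WT and 9 against db/+) summed to 1329 to 1834 CPM in db/db, 751 to 907 CPM in db/+ and 609.9 to 699 CPM in WT. Macrophage markers (3 of 11 higher against WT and 5 against db/+) summed to 163 to 241 CPM in db/db, 96.3 to 118 CPM in db/+ and 95.5 to 121 CPM in WT. Endothelial markers (6 of 10 higher against each group) summed to 659.7 to 907 CPM in db/db, 567 to 622 CPM in db/+ and 584 to 631 CPM in WT. No marker of these 5 lists was at 0 throughout a group except 1 acinar marker in db/+ and in WT. With the acinar mean as a covariate the Sod3 and Gpx8 calls against WT ended (log2 fold change 0.77 and 0.62, adjusted p = 0.53 and 0.553). Against db/+ the calls of Gpx8 (0.94, adjusted p = 0.0963) and Sod2 (-0.20, adjusted p = 0.0786) ended. Those of Prdx2 and Keap1 against WT ended although their fold changes grew, to 0.43 and 0.40 (adjusted p = 0.0538 and 0.0996). The acinar mean, on a log2 CPM scale, was 9.20, 7.93 and 7.96 in db/db and 7.20, 6.51 and 6.47 in WT. These groups did not overlap in it, so against WT this covariate is hard to tell apart from genotype. The part of stellate, duct, macrophage and endothelial cells in these values was not tested.

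**Figure D3:**
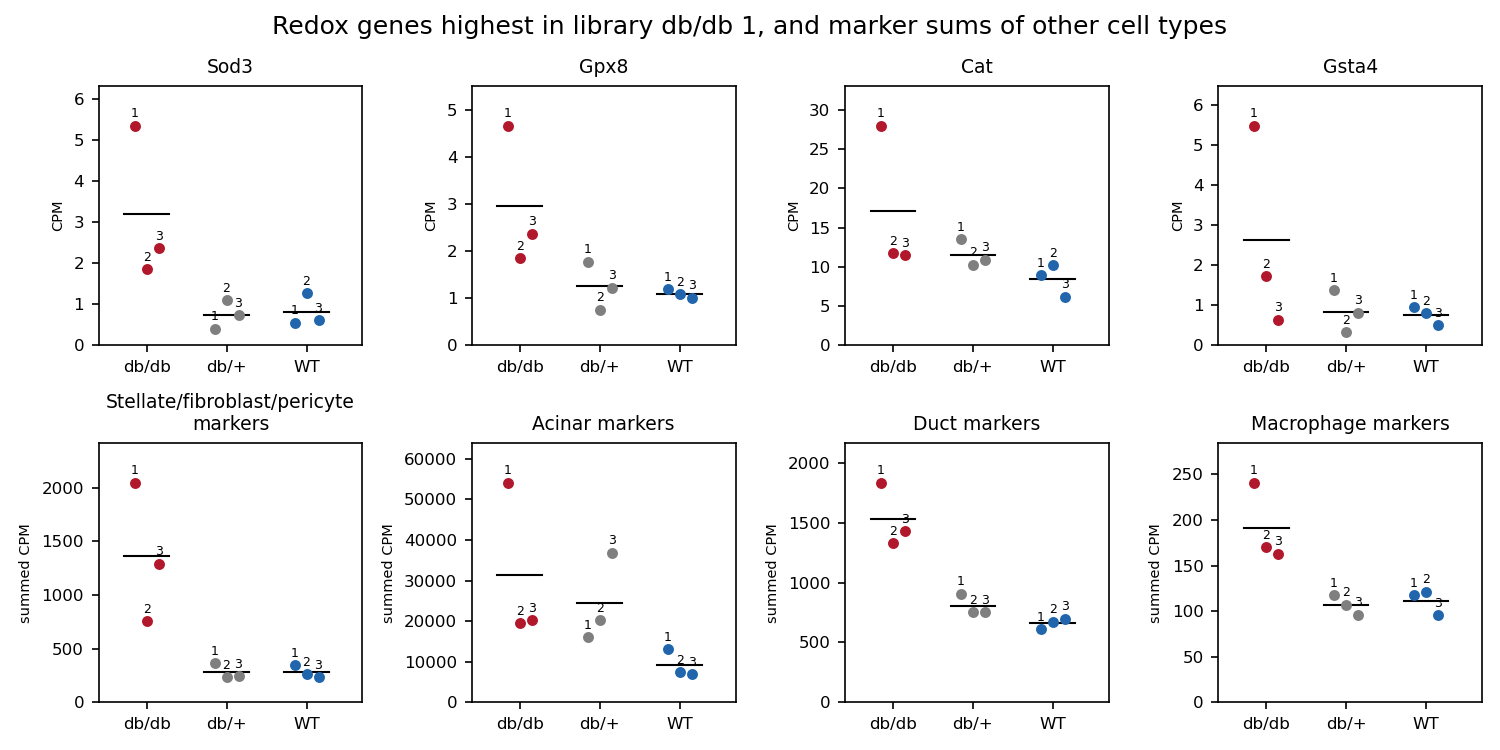
CPM by library (points, numbered) and group mean (line) of Sod3, Gpx8, Cat and Gsta4 in the upper row, and summed CPM of 4 marker lists of other cell types in the lower row, each axis from 0. Library db/db 1 is highest in every panel, at 5.35 CPM for Sod3 and 2048 summed CPM for the stellate, fibroblast and pericyte markers.

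Gpx1, Gpx3, Gpx4 and Gpx7, the glutathione peroxidase genes among the 38 other than Gpx8, did not pass in any comparison. Gpx2, the gastrointestinal form, is one of the other pathway genes, named after its values were seen, and rose by 1.07 ± 0.26 (adjusted p = 0.00469) against WT and 1.29 ± 0.26 (adjusted p = 0.00145) against db/+. Gpx1, the main cytosolic one, was at 72.2, 66.9 and 69.7 CPM in db/db islets, 87.2, 73.5 and 78.5 CPM in db/+ islets, and 61.8, 75 and 63.9 CPM in WT islets, and gave 0.06 ± 0.09 (adjusted p = 0.649) against WT and -0.20 ± 0.09 (adjusted p = 0.101) against db/+. Gpx3, the secreted plasma form, gave 0.23 ± 0.16 (adjusted p = 0.263) and 0.01 ± 0.16 (adjusted p = 0.957), with a single higher value of 135 CPM in db/db 1. Gpx4, which reduces lipid hydroperoxides in membranes, had 5.63 to 7.99 CPM in the 9 libraries, and its db/+ values lay above both WT and db/db without passing (0.39 ± 0.15, adjusted p = 0.242 in db/+ against WT). Gpx7, of the endoplasmic reticulum, was between 0.506 and 1.78 CPM, so that only a large difference was detectable at this depth (SE 0.51 on the log2 scale).

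Glutathione transferases join glutathione to reactive compounds. Gstp1 (chromosome 19, 4035411 to 4037912, GRCm38) was at 15.2, 10.5 and 16.4 CPM in db/db islets, 5.50, 5.82 and 6.04 CPM in db/+ islets, and 4.60, 4.42 and 6.10 CPM in WT islets, with every db/db library above the rest. It rose by 1.48 ± 0.20 (adjusted p = 4.61e-05) against WT and 1.28 ± 0.19 (adjusted p = 1.42e-04) against db/+. The pseudogene Gstp-ps had about as many counts and also rose, by 1.0 ± 0.21 against WT (adjusted p = 0.00182), so reads may be divided between these copies and the Gstp1 value is uncertain. Gstm1, of a family of close copies, was at 17.2, 11.4 and 9.59 CPM in db/db islets, 11, 13.4 and 13.9 CPM in db/+ islets, and 16.1, 14.4 and 10.6 CPM in WT islets and did not pass (-0.12 ± 0.21, adjusted p = 0.672, and -0.02 ± 0.21, adjusted p = 0.953).

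Of NRF2 and its circle, Nqo1 fell steeply while the regulator itself did not pass. Nqo1 (chromosome 8, 107388225 to 107403205, GRCm38), a quinone reductase and a well-known NRF2 target, was at 2.47, 2.73 and 2.48 CPM in db/db islets, 15.2, 13.1 and 11.9 CPM in db/+ islets, and 9.60, 12 and 8.33 CPM in WT islets. The db/db libraries were far below all others and close to each other. The fall was 1.96 ± 0.20 (adjusted p = 4.81e-06) against WT and 2.38 ± 0.20 (adjusted p = 7.56e-07) against db/+, and db/+ over WT gave 0.42 ± 0.16 (adjusted p = 0.221). Per Gclm count, Nqo1 counts were 0.0496, 0.0502 and 0.0440 in db/db, 0.276, 0.233 and 0.207 in db/+, and 0.172, 0.235 and 0.163 in WT. Nfe2l2, which encodes NRF2, was at 53, 42.4 and 36.1 CPM in db/db islets, 49.6, 49.4 and 45.8 CPM in db/+ islets, and 55.4, 47.1 and 40.2 CPM in WT islets and gave -0.13 ± 0.14 (adjusted p = 0.487) and -0.14 ± 0.14 (adjusted p = 0.439). Keap1, its repressor, was at 70.5, 83.1 and 89.3 CPM in db/db islets, 61.1, 66.8 and 69.7 CPM in db/+ islets, and 64, 74.7 and 64.5 CPM in WT islets, overlapping WT and above db/+. It rose by 0.26 ± 0.10 (adjusted p = 0.0462) against WT and 0.30 ± 0.10 (adjusted p = 0.0246) against db/+, and antisense Gm16754 shares 11.4% of its exon length. The call against WT ended by DESeq2 and limma-voom among others (log2 fold change 0.04 to 0.40), and that against db/+ held in 16 of 23. Without single libraries the adjusted p ran from 0.00932 to 0.218 and from 0.00452 to 0.123, the calls ending without db/db 2 or db/db 3 in both, without db/+ 2, db/+ 3, WT 1 or WT 3 against WT, and without db/+ 1 or db/+ 2 against db/+. Hmox1, heme oxygenase, another NRF2 target, was at 8.64, 13.3 and 9.27 CPM in db/db islets, 8.73, 12.5 and 6.36 CPM in db/+ islets, and 8.65, 8.76 and 5.08 CPM in WT islets and did not pass (0.46 ± 0.28, adjusted p = 0.211, and 0.18 ± 0.28, adjusted p = 0.643).

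The pentose phosphate route supplies NADPH to both systems, and the 3 of its genes among the 38, G6pdx, Tkt and Taldo1, did not pass in any comparison. Among the other pathway genes Pgd, Pgls and H6pd rose and Rpia and Rpe fell against WT (named after their values were seen), with 0.39 ± 0.14, 0.41 ± 0.11, 0.58 ± 0.10, -0.60 ± 0.17 and -0.41 ± 0.09 (adjusted p = 0.0439, 0.00703, 5.22e-04, 0.0116 and 0.0018). G6pdx, the first enzyme of the route, gave 0.28 ± 0.12 (adjusted p = 0.0848) against WT and 0.23 ± 0.12 (adjusted p = 0.154) against db/+, with 18.7 to 25.8 CPM in the 9 libraries. Against WT it passed without WT 2, and antisense Ikbkg shares 13.6% of its exon length. Tkt, transketolase, gave -0.09 ± 0.08 (adjusted p = 0.399) and -0.15 ± 0.08 (adjusted p = 0.152), with 66.1 to 82.3 CPM. Taldo1, transaldolase, ranged from 34 to 43.5 CPM.

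Levels between genes were set side by side as mean CPM per kilobase of annotated exon. Txnip led in every group, at 466 in db/db, 267 in db/+ and 186 in WT. Sod1 followed in db/db, at 106 in db/db, 66.1 in db/+ and 65.2 in WT, and Gpx1 in WT, at 82.2 in db/db, 94.1 in db/+ and 79 in WT. Prdx4 was ninth of the 38 in db/db and twenty-fourth in WT, at 26.8 in db/db, 10.6 in db/+ and 7.34 in WT. Nqo1 stood at 1.65 in db/db, 8.63 in db/+ and 6.43 in WT, thirty-sixth in db/db and twenty-seventh in WT. Sod3 had the lowest mean of the 38 in each group, at 0.895 in db/db, 0.209 in db/+ and 0.227 in WT, close to Gpx7 in db/db at 0.930. Catalase was at 6.54 in db/db, 4.43 in db/+ and 3.24 in WT.

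**Figure D4:**
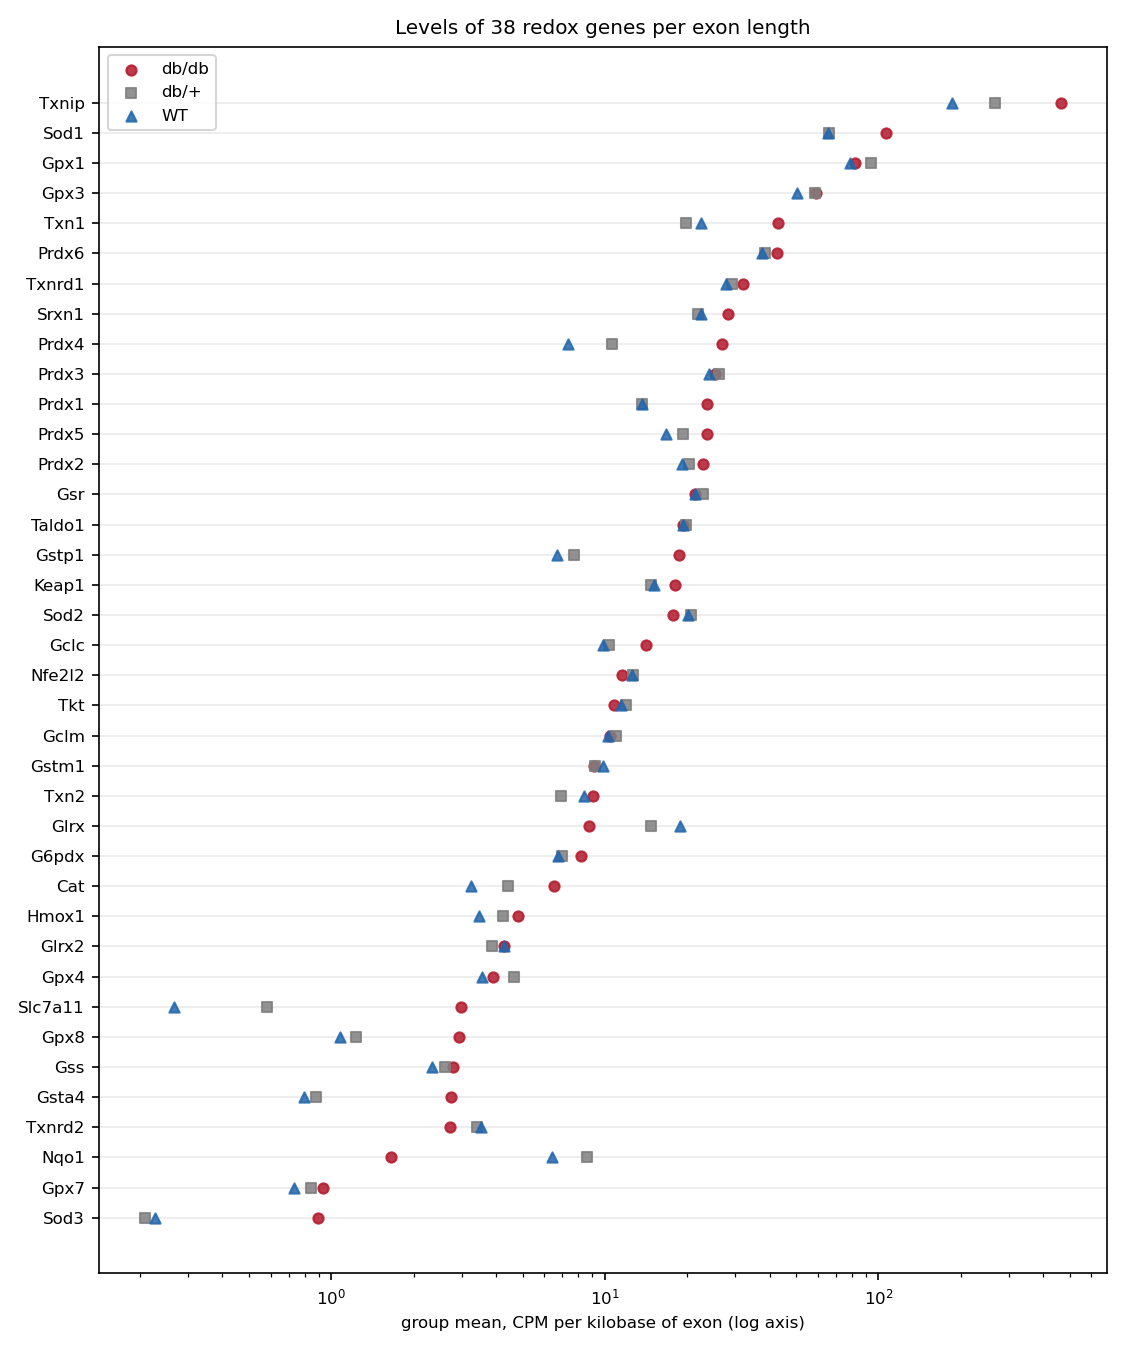
Mean CPM per kilobase of exon (log axis) of the 38 genes in db/db (circles), db/+ (squares) and WT (triangles), ordered by the db/db level. Txnip is rightmost in each group, at 466 in db/db, 267 in db/+ and 186 in WT, and Slc7a11 shows the widest gap between db/db (2.99) and WT (0.267).

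The comparison of db/+ with WT is that of 1 mutant copy with none. Txnip was the 1 gene of the 38 that passed, and none fell, beside 0.606% and 0.82% of all tested genes. At an unadjusted p under 0.05 edgeR had 7 higher and 1 lower of the 38, and DESeq2 called 3 higher (Txnip, Prdx4 and Slc7a11) and 0 lower after adjustment. Groups did not overlap for 5 genes above WT (Cat, Gpx4, Prdx5, Txnip and Slc7a11) and 1 below (Glrx2), beside 12.1% and 10.4% of all tested genes. The median log2 fold change was 0.08, against 0.02 over all tested genes.

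Around the 38 genes, 113 of 128 other genes of the same pathways were tested. In db/db against WT 46 rose and 18 fell (40.7% and 15.9%), beside 21.8% and 19.9% of all tested genes. Against db/+ 33 rose and 25 fell (29.2% and 22.1%), beside 20.6% and 19.7% of all tested genes. The counts of the single lists below are to be read beside the same shares. Among 27 other thiol and peroxide enzymes 14 rose and 5 fell against WT. The methionine sulfoxide reductase gene Msrb1 (1.13 ± 0.15, adjusted p = 4.26e-05) and the selenium carrier gene Selenop (0.61 ± 0.08, adjusted p = 6.73e-05) rose, and the selenoprotein genes Selenot (-0.79 ± 0.09, adjusted p = 9.72e-06) and Selenow (-0.63 ± 0.11, adjusted p = 3.64e-04) fell. Of 32 genes of glutathione metabolism and transfer, 13 rose and 2 fell. Gsto2, an omega-class transferase, was at 15.8, 19.2 and 18.8 CPM in db/db islets, 4.12, 2.78 and 3.10 CPM in db/+ islets, and 2.30, 2.71 and 2.24 CPM in WT islets and rose by 2.89 ± 0.19 (adjusted p = 1.04e-07). Gstm5 rose by 1.69 ± 0.15 (adjusted p = 1.21e-06), while the export pump genes Abcc5 (-0.51 ± 0.08, adjusted p = 3.01e-04) and Abcc1 (-0.40 ± 0.07, adjusted p = 7.05e-04) fell.

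Partners and targets of NRF2 went both ways, 8 higher and 5 lower of 24 against WT, and 5 higher and 9 lower against db/+. Of all tested genes 21.8% rose and 19.9% fell against WT, and 20.6% rose and 19.7% fell against db/+. Ephx1, an epoxide hydrolase, and the aldehyde reductase gene Akr1a1 rose against WT (1.74 ± 0.19, adjusted p = 1.21e-05, and 0.52 ± 0.08, adjusted p = 1.55e-04). Mafg, a DNA-binding partner of NRF2, and Ugdh fell (-0.58 ± 0.08, adjusted p = 6.34e-05, and -0.43 ± 0.10, adjusted p = 0.00459). Of 18 other genes that supply NADPH, 8 rose and 4 fell against WT. The mitochondrial folate enzyme gene Aldh1l2 (1.0 ± 0.08, adjusted p = 8.43e-07) and malic enzyme gene Me3 (1.91 ± 0.21, adjusted p = 8.03e-06) rose, and the cytosolic folate enzyme gene Mthfd1 (-1.44 ± 0.09, adjusted p = 4.49e-08) and the mitochondrial isocitrate dehydrogenase gene Idh2 (-0.65 ± 0.08, adjusted p = 2.13e-05) fell. Of 12 genes for sources of reactive oxygen 3 rose and 2 fell in both comparisons. Maob, a monoamine oxidase that forms hydrogen peroxide, was at 20.0, 32.5 and 28.7 CPM in db/db islets, 144, 155 and 141 CPM in db/+ islets, and 146, 142 and 127 CPM in WT islets, a fall of 2.35 ± 0.13 (adjusted p = 8.73e-08) against WT. Ero1lb, the pancreatic endoplasmic reticulum oxidase that makes disulfide bonds and peroxide, was at 733, 937 and 871 CPM in db/db islets, 2411, 2355 and 2435 CPM in db/+ islets, and 2006, 2521 and 2597 CPM in WT islets, a fall of 1.49 ± 0.12 (adjusted p = 5.18e-07) against WT. The oxidase genes Nox4 (2.31 ± 0.53, adjusted p = 0.00335) and Xdh (1.61 ± 0.35, adjusted p = 0.0042) rose against WT, both highest in db/db 1. With the acinar mean as a covariate the calls of Nox4, Xdh and Ugdh against WT ended, at 1.23, 1.04 and -0.52 (adjusted p = 0.309, 0.234 and 0.0566). They also ended with the title letter (0.0512, 0.0762 and 0.111), that of Ugdh with Y-linked counts or without the 3 libraries holding both Xist and Y-linked counts too, and that of Akr1a1 with library totals.

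In db/+ against WT edgeR called 4 of the 113 higher and 0 lower (3.54% and 0%), beside 0.606% and 0.82% of all tested genes. DESeq2 called 1 lower, and an unadjusted p under 0.05 was reached by 17 higher and 4 lower. The 4 are named here after their values were seen, and 2 genes passed when any single db/+ library, db/db 3 or WT 3 was left out. Chac1, which breaks down glutathione and is induced in amino acid stress, was at 58.5, 83 and 67.6 CPM in db/db islets, 58, 44.4 and 55.8 CPM in db/+ islets, and 36.9, 27.3 and 30.2 CPM in WT islets (0.74 ± 0.15, adjusted p = 0.0444 in db/+ against WT). Its promoter window holds a TGATGNAA core at -193 to -186, the same core as in Slc7a11, found in 3.97% of all windows. Of the other genes called here, Mafk had an antioxidant core at -13 to -5 (12.4% of windows). No searched element was found for Aldh1l2 or Mthfd2. Aldh1l2 gave 0.61 ± 0.08 (adjusted p = 0.00512), Mthfd2, another mitochondrial folate enzyme gene, 0.48 ± 0.11 (adjusted p = 0.0492), and Mafk, a small MAF partner of NRF2, 0.87 ± 0.11 (adjusted p = 0.00285). The db/+ libraries of Mafk (79.9, 71.7 and 65.7 CPM) lay above both db/db (47.8, 60.2 and 59.6 CPM) and WT (39.8, 35.3 and 43.5 CPM).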

How the data were processed

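RNA was extracted from purified islets with Trizol and libraries were made after ribosomal RNA removal, per the labels' protocols. The submitters' processing notes name bcl2fastq 2.20.0.422, TopHat2 2.0.14 and the mm10 build. The deposited values are raw read counts per gene symbol, 1 column a library. Which program, annotation and strand setting made the counts is not stated in those sources, so overlapping, antisense and near-identical genes can share counts. 1 column of the table matched no sample and was not used.

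Groups came from the genotype label. The full strain label is not reported here. Genes were kept by filterByExpr (16826 of 52459), scaled by TMM and fitted by edgeR 4.0.16 (R 4.3.3) across the 9 libraries (robust quasi-likelihood, 6 residual degrees of freedom, two-sided F-test, Benjamini-Hochberg over all tested genes, threshold 0.05). SE came from the fold change and the F statistic. The test was checked on simulated counts with the same spread for all genes. These held no differences of sex or cell type, so the check cannot speak for such differences here. Exon lengths and overlaps came from an annotation of another mouse assembly, used for nothing else, and gene positions and promoters from RefSeq on GRCm38.p6. All 38 symbols matched RefSeq. The 38 genes, the lists of other pathway genes and markers, and the motifs were chosen with earlier results of these data known. Every member is named, and of each other list the 2 risen and 2 fallen genes with the smallest adjusted p against WT. Alternatives were other scalings and filters, DESeq2 1.42.0, limma-voom (limma 3.58.1), only the compared groups, ribosomal RNA or acinar genes removed, covariates, and each library left out. Figures were drawn with matplotlib 3.10.9.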

Additional observations from a re-analysis of the deposited data

How the results depend on the processing

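Over 23 alternatives, 8 of the 16 calls in db/db against WT (Txnip, Prdx4, Nqo1, Slc7a11, Prdx1, Txn1, Gstp1 and Glrx) and 5 of the 16 against db/+ (Nqo1, Txn1, Txnip, Prdx4 and Prdx1) held in every one, and 12 and 11 held whichever single library was left out. Leaving out a library gave 11 to 14 higher and 2 to 3 lower against WT, 9 to 14 and 2 to 3 against db/+, and 0 to 1 higher in db/+ against WT. Library totals in place of TMM, which shifted all genes by a median of -0.22 in both db/db comparisons, gave 9 higher and 6 lower against WT, 8 lower against db/+, and 0 higher in db/+ against WT. Txnrd1 then changed sign against WT (-0.0093, adjusted p = 0.96, not past the threshold). The first letter of the sample title as a covariate gave 8 higher against WT, 5 higher and 1 lower against db/+, and 0 higher in db/+ against WT. That letter is H in all db/db, G in all db/+ and both in WT, so its term rests on WT alone and it cannot be told apart from genotype between db/db and db/+. Leaving out the 3 libraries holding both Xist and Y-linked counts was chosen after seeing the data and left 1 WT library assumed to vary like the others. The median log2 fold change of the 38 was then 0.19 in db/db against WT and 0.02 in db/+ against WT. In the libraries left, sex and genotype cannot be told apart in either db/db comparison. DESeq2 gave 3 and no low-count filter 2 higher in db/+ against WT. Among the 113 other pathway genes, 46 higher against WT became 23 with the acinar mean as a covariate, 28 with library totals, 27 with the title letter and 29 without those 3 libraries, and 18 lower became 10 with the acinar mean and 29 with totals. Against db/+, 33 higher became 21 with totals and 11 with the title letter, and 25 lower became 10 with the title letter and 15 with the Y-linked counts. In db/+ against WT, 4 higher became 2 by limma-voom or the title letter and 2 to 4 with a library left out, and 0 lower became 1 to 2 by DESeq2, without a filter, with upper-quartile factors, or without db/db 1 or those 3 libraries. The cause was not tested. Depth limits Sod3, Gpx7, Gpx8 and Gsta4, and Nox4 among the other pathway genes, at a few CPM. No paired analysis was possible because the labels give no replicate numbers.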
